A study of Amphiura filiformis with 28 samples.

Results

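The proximal and medial segments of severed brittle star arms were compared at 5 days post amputation (dpa). These are 6 of the 28 RNA-seq samples of the series, and 6 of its 20 arm explant samples. They were chosen by their labels, as proximal replicates 1, 4 and 5 and medial replicates 1, 2 and 5. An explant is a piece of arm of the brittle star Amphiura filiformis that was cut away from the disc and then cut again at its distal end, so that it carries a wound at either end. All explants were wild-type, untreated and from whole arms, and after 3 or 5 days in culture each piece was divided into a proximal, a medial and a distal section. Every sample is a batch of many explants, and the labels do not say which samples share a batch. The p-values therefore measure only the spread between such samples, estimated over all 20 explant samples.

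A severed arm regrows from its distal end, whereas its proximal end closes the wound without regrowth. Proximal segments therefore hold tissue next to a healing wound, and medial segments, which hold no cut surface, serve as the control for both ends. In animals, wound closure draws on cell migration, matrix remodelling, proteases and immune defence. Tissue under repair can also change its protein synthesis, protein folding and mitochondrial metabolism. The comparison asks which genes differ next to a wound that closes but does not regenerate.

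The values are TPM, a length-corrected share of all transcripts of a sample, rescaled between samples by the trimmed mean of M-values (TMM). They keep no read numbers, so the depth behind a value is unknown. All tests were made with limma on log2(value + 1), over 21442 of 30090 genes, those that reached a value of 1 in 3 or more explant samples, and fold changes on this scale understate the change of genes with low values. A gene was called where the adjusted p (Benjamini–Hochberg, over all genes tested) was under 0.05 and the log2 fold change was beyond 1 or -1. The column totals, which the TMM step sets, were 1796168, 2976429 and 1101616 in proximal replicates 1, 4 and 5, and 1086014 to 1586838 in the medial samples. Proximal replicate 4 thus stood at 232.1% of the median explant total, above every other explant sample.

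At 5 dpa, 325 genes (1.52% of those tested) were called higher in proximal than in medial segments and 94 genes (0.438%) were called lower. The genes called higher had a median log2 fold change of 1.26 and reached 4.94, and 29 of them were above 2. The genes called lower had a median of -1.18 and reached -2.41, with 3 genes beyond -2. All 3 proximal values lay above all 3 medial values in 304 of the 325 genes, as they did in 9.15% of all genes tested. They lay below in 88 of the 94 genes, beside 7.57% of all genes. The median log2 fold change over all genes tested was -0.004.

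**Figure D1:**
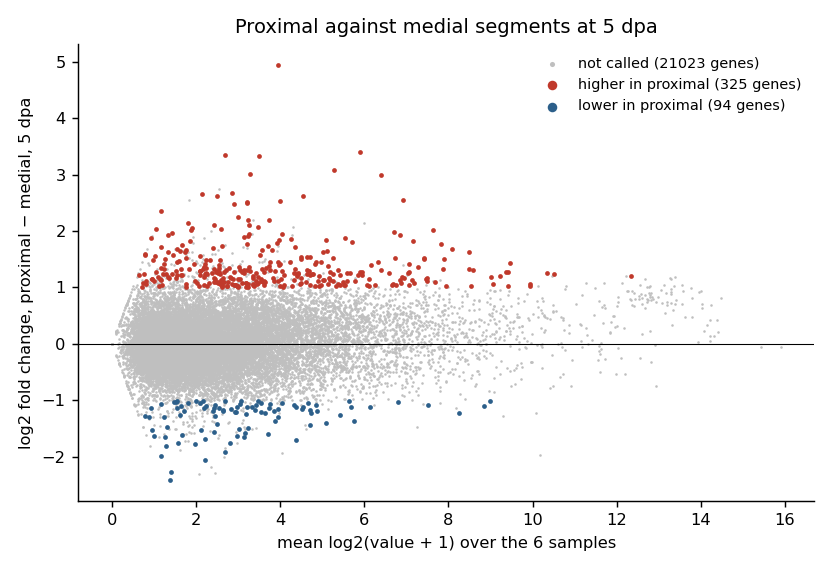
Each point is a gene, with its mean log2(value + 1) over the 6 samples on the horizontal axis and its log2 fold change between proximal and medial segments at 5 dpa on the vertical axis. The 325 genes called higher (red) reach 4.94, whereas the 94 called lower (blue) reach -2.41.

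The surplus of higher calls depends on how the samples are scaled. Of all calls, 77.6% were higher on the deposited scale and 79.8% with a median of ratios, but 21% when every sample was brought to the same total, with 61 genes higher and 230 lower. That rescaling moved the median of all genes to -0.28. The counts also rest on single libraries. Without proximal replicate 4, 142 genes were higher and 25 lower, without proximal replicate 1 there were 185 and 96, and without proximal replicate 5 there were 890 and 370. With the replicate number as a block there were 151 and 36. A fit of only the 6 samples compared, without the spread shared over all 20, left 13 higher and 1 lower. Without medial replicate 5, 426 were higher and 238 lower. Of the genes called on all 6 samples, 113 of the 325 higher and 13 of the 94 lower were called in each of the fits that left out 1 of the 6 samples. At the same total, 56 of those 113 genes and all 13 of the lower ones were called.

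The proximal samples differed among themselves. Replicate 4 held the highest proximal value in 225 of the 325 genes called higher, and replicate 5 the lowest in 269 of them. The median log2 difference of these genes from the medial mean was 1.58 in replicate 4, 1.39 in replicate 1 and 0.9 in replicate 5. Over all genes tested, replicate 5 correlated with medial replicate 5 at a Pearson r of 0.96 across genes, with proximal replicate 1 at 0.954 and with proximal replicate 4 at 0.932, while proximal replicates 1 and 4 correlated at 0.967. Genes are not independent replicates, so these values are descriptive.

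The difference between proximal samples also ran with expression level. For the 897 genes with a mean value of 100 or more, the median log2 difference from the medial mean was 0.73 in proximal replicate 4, 0.35 in replicate 1 and -0.22 in replicate 5. Among the 6876 genes between 1 and 3 it was -0.19, -0.05 and 0.06 in the same order. Replicates 4 and 1 were thus raised at high levels and replicate 5 was lowered. The genes called higher had a median mean value of 12.3, the genes called lower 8.03 and all genes tested 3.5. Higher calls made up 5.57% of the genes at 100 or more and 0.611% of those between 1 and 3. The part of this slope in any one call was not tested.

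**Figure D2:**
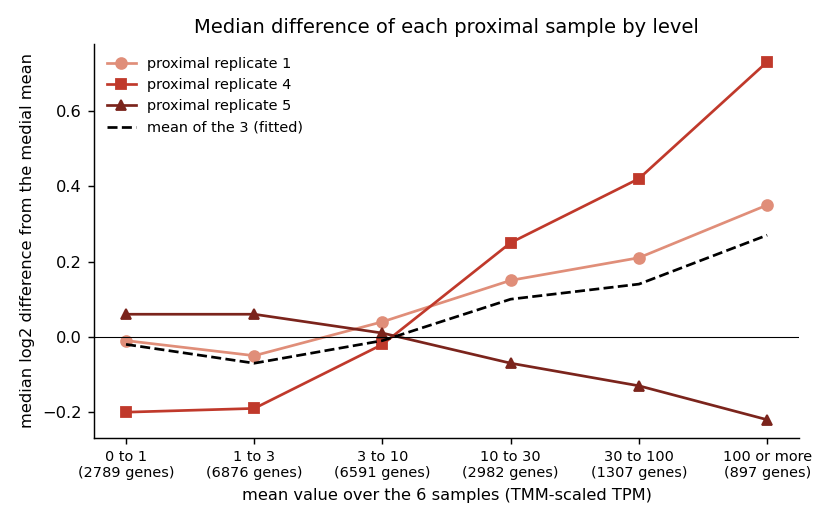
The median log2 difference of each proximal sample from the medial mean (vertical axis) is plotted for genes grouped by their mean value over the 6 samples (horizontal axis, in TMM-scaled TPM), with the fitted change as a dashed line. Replicate 4 climbs to 0.73 and replicate 1 to 0.35 in the highest group, while replicate 5 falls to -0.22.

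Gene names, positions and domains were at hand for chromosome 1 of the study's assembly, with 1193 genes, of which 860 were tested. Of these 860, 6 were called higher and 4 lower, beside 1.52% and 0.438% of all genes. Those called higher encode an adhesion receptor, a mitochondrial protease, a solute transporter, a lipid-related dehydrogenase, a replication factor and a peptidase. Those called lower carry no name. Names with a number after a hyphen belong to families with several similar copies, between which pseudo-alignment may divide reads, so their values are less certain.

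Agrg7-5 (AFI31186, chromosome 1, 37234326 to 37259850, + strand) had the largest change among them. It encodes a 7-transmembrane receptor of the adhesion type and stands in the study's curated immune list. Its values were 5.57, 2.74 and 2.62 in proximal replicates 1, 4 and 5, and 0.37, 0.62 and 0.36 in medial replicates 1, 2 and 5. The groups did not overlap, and every medial value was below 1. Its log2 fold change was 1.63 ± 0.22 (SE; adjusted p = 0.000437), the ratio of the linear means was 8.1, and the call was made in 6 of the 6 fits with a sample left out.

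Clpp (AFI29753, 54968427 to 54986907, + strand) encodes the proteolytic subunit of a protease of the mitochondrial matrix. It stood at 53.1, 62.9 and 33.4 in the proximal samples and at 15.5, 24.3 and 26 in the medial ones. Every proximal value was above every medial value, and the log2 fold change was 1.13 ± 0.22 (adjusted p = 0.0067). Hsdl2-2 (AFI31368, 54374077 to 54391832, - strand), a short-chain dehydrogenase with a sterol carrier domain, had the smallest standard error of the 6, at 15.7, 16.1 and 13.3 against 7.73, 5.48 and 6.78. The groups lay apart by more than the spread within either of them, with a log2 fold change of 1.07 ± 0.15 (adjusted p = 0.000446). The call of Hsdl2-2 was made in 5 of the 6 fits with a sample left out, that of Clpp in 4.

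Psf1 (AFI29993, 46276098 to 46284188, - strand) is a subunit of the GINS complex, which works in the helicase that unwinds DNA for replication. It was at 8.9, 15.8 and 6.39 in the proximal and at 3.72, 3.68 and 5.36 in the medial samples, so that replicate 4 was far above the other two proximal samples. The log2 fold change was 1.04 ± 0.24 (adjusted p = 0.0167). Thop1 (AFI31552, 47538742 to 47559705, + strand), a metallopeptidase that cleaves short peptides in the cytosol, stood at 14.2, 16 and 8.35 against 7.65, 4.57 and 5.21. Its log2 fold change was 1.0 ± 0.2 (adjusted p = 0.00828), at the edge of the threshold. Osta-5 (AFI31691, 29727735 to 29737461, + strand), named for a subunit of a vertebrate transporter of organic solutes such as bile acids and steroids, was at 8.97, 11.3 and 5.56 against 3.56, 1.75 and 5.71. Its groups overlapped in the fifth replicates (log2 fold change 1.09 ± 0.29, adjusted p = 0.037). With 1 sample left out, Psf1 was called in 3 of 6 fits, and Thop1 and Osta-5 in 2 each. Without proximal replicate 4, the adjusted p was 0.0504 for Clpp, 0.095 for Psf1, 0.0601 for Thop1 and 0.183 for Osta-5. At the same total the call was kept by Agrg7-5 (log2 fold change 1.35, adjusted p = 0.0263) and lost by the other 5 genes. There the log2 fold changes were 0.7 for Clpp (adjusted p = 0.0604), 0.67 for Hsdl2-2 (0.17), 0.64 for Psf1 (0.109), 0.59 for Thop1 (0.212) and 0.69 for Osta-5 (0.239). With the replicate block these same 5 genes also lost the call, while Hsdl2-2 missed only the fold threshold (0.98, adjusted p = 0.0117).

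**Figure D3:**
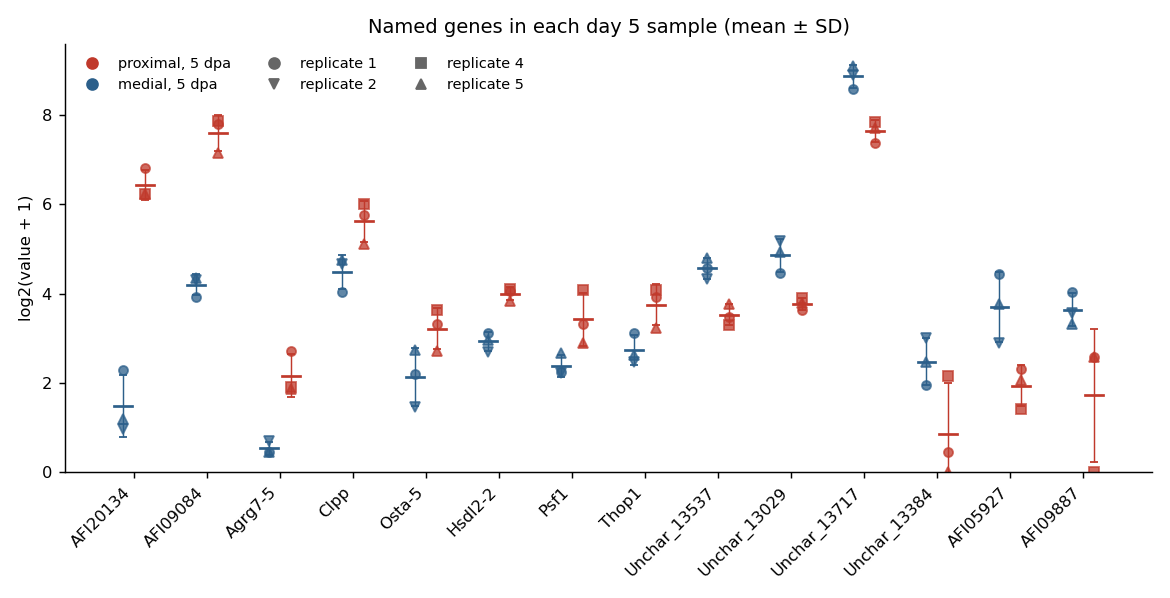
The vertical axis gives log2(value + 1) in each proximal (red) and medial (blue) sample at 5 dpa, with a symbol for each replicate number, the group mean as a bar and its SD as an error line (n = 3 a group). The proximal and medial points of AFI20134, AFI09084 and Agrg7-5 lie far apart, whereas those of Osta-5 and Unchar_13384 overlap.

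Over all chromosomes, the largest changes were in genes for which only an identifier was at hand. AFI20134 stood at 112, 74.4 and 73.8 in the proximal samples and at 3.85, 0.97 and 1.3 in the medial ones. This is the largest log2 fold change of the comparison, 4.94 ± 0.32 (adjusted p = 9.96e-08), and a ratio of linear means of 42.6. AFI09084 stood at 221, 232 and 140.1 against 14.2, 18.7 and 19.5, with a log2 fold change of 3.4 ± 0.31 (adjusted p = 3.17e-06). Both were called in 6 of 6 fits with a sample left out, and at the same total their log2 fold changes were 4.5 and 2.97.

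On the lower side, AFI09887 was listed at 4.98, 0 and 5.02 in the proximal samples and at 15.4, 10.8 and 8.95 in the medial ones. Its log2 fold change of -1.91 ± 0.49 (adjusted p = 0.0301) rests on the 0 of replicate 4, without which it was not called (adjusted p = 0.122), nor was it with the replicate block (0.0748). AFI05927 was at 3.98, 1.68 and 3.19 against 20.8, 6.42 and 12.5, with widely spread medial values (log2 fold change -1.76 ± 0.36, adjusted p = 0.00855). It was not called without proximal replicate 4 (adjusted p = 0.0623). At 3 dpa its proximal samples were at 2.89 to 5.49 and its medial ones at 3.07 to 5.13 (log2 fold change -0.06). Its medial values at 5 dpa thus stood above those of 3 dpa.

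The 4 genes called lower on chromosome 1 have no predicted protein name. Unchar_13717 (AFI31748, 1858632 to 1916391, + strand) was the most abundant of them, at 164, 228 and 208 in the proximal and at 384, 476 and 547 in the medial samples. Every medial value was above every proximal one (log2 fold change -1.22 ± 0.32, adjusted p = 0.0313). Unchar_13029 (AFI30061, 24472574 to 24484306, + strand), which carries a domain of the major facilitator family of membrane transporters, was at 11.4, 13.9 and 12.9 against 21, 35.4 and 29.6. Its proximal samples lay close together, and its log2 fold change was -1.08 ± 0.24 (adjusted p = 0.0149).

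Unchar_13537 (AFI31283, 51817113 to 51825247, + strand), a gene the study dates to this species alone, was at 10.2, 8.89 and 12.7 against 22.7, 19.2 and 26.8. Its groups did not overlap either (log2 fold change -1.05 ± 0.24, adjusted p = 0.0181). Unchar_13384 (AFI30915, 49836688 to 49836940, - strand), a very short gene model, was at 0.36, 3.42 and 0 against 2.85, 7.06 and 4.57. Its groups overlapped through proximal replicate 4 (log2 fold change -1.61 ± 0.39, adjusted p = 0.0232). The calls were made in 2 of 6 fits with a sample left out for Unchar_13717, in 4 for Unchar_13029, and in 3 each for Unchar_13537 and Unchar_13384. All 4 genes were called at the same total, with log2 fold changes of -1.43 to -1.94, but Unchar_13537 and Unchar_13717 were not called with the replicate block (adjusted p = 0.0887 and 0.0827).

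A wider view, taken after the values were seen, dropped the fold threshold and kept the adjusted p under 0.05. By that rule 822 genes (3.83%) were higher and 350 (1.63%) lower over all chromosomes, and on chromosome 1 there were 37 higher and 12 lower of 860 (4.3% and 1.4%). The added chromosome 1 genes number 31 higher and 8 lower, with log2 fold changes within 1 of 0. They allow gene groups to be described, each by how many members passed and by its median, beside a median of -0.004 over all genes. In bulk tissue, fewer cells of a type and less RNA per cell cannot be told apart.

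Genes of mitochondria and energy metabolism made up the list with the largest share of members that rose. Of 13 genes tested in that list, 6 passed higher (46.2%, beside 3.83% of all genes) and none passed lower, and the list median was 0.61. Only 2 of the 13 passed without proximal replicate 4, Phb2 (adjusted p = 0.0366) and Ech1-1 (adjusted p = 0.0335). None passed at the same total, and 1 passed with the replicate block. Apart from Clpp they were Phb2 (prohibitin 2, of the inner mitochondrial membrane), Ndus8 (a subunit of respiratory complex I), Ech1-1 (an isomerase of fatty acid breakdown), Etfd (which passes electrons from fatty acid oxidation to ubiquinone) and Mdhm (mitochondrial malate dehydrogenase). Phb2 was at 84.1, 93.6 and 71.6 in the proximal and at 47.9, 45.5 and 43.4 in the medial samples, without overlap (log2 fold change 0.84 ± 0.16, adjusted p = 0.0054). Ech1-1 was at 38.6, 39.2 and 29.1 against 20.5, 18.4 and 21.7, also without overlap (0.78 ± 0.14, adjusted p = 0.00487). Ndus8 had a log2 fold change of 0.82, Etfd of 0.71 and Mdhm of 0.68. Cchl, which attaches haem to cytochrome c and was not in the list, had 0.84 ± 0.18 (adjusted p = 0.0132), and passed neither without proximal replicate 4 (adjusted p = 0.0816) nor at the same total (0.282). Atp5h, a subunit of ATP synthase, did not pass, at 812, 1061 and 493 against 396, 584 and 515.

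Genes of translation and ribosome making showed the same direction. Of 20 genes tested, 6 passed higher (30%, beside 3.83% of all genes) and none lower, 19 had a positive log2 fold change, and the median was 0.59. Syep alone of the 20 passed without proximal replicate 4 (adjusted p = 0.0469). At the same total only Rl3 passed (adjusted p = 0.0489), and none passed with the replicate block. Syep and Sylc charge transfer RNAs with amino acids, Wdr36 acts in ribosomal RNA processing in human and yeast, and Eif3a is a subunit of a translation initiation factor. Wdr18 and Rpp40, a subunit of the ribonuclease that trims transfer RNA precursors, passed as well. Syep stood at 13.1, 13.5 and 11.5 in the proximal samples and at 8.77, 6.8 and 7.55 in the medial ones. Wdr36 stood at 3.57, 3.92 and 3.45 against 2.09, 1.54 and 1.89. Neither gene's groups overlapped, and the log2 fold changes were 0.66 ± 0.13 (adjusted p = 0.00855) and 0.71 ± 0.16 (adjusted p = 0.0164).

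The ribosomal proteins in the list, at far higher levels, did not pass. Rl3 was at 3572, 6913 and 1851 against 1342, 2146 and 1703, and Rl37 at 20089, 40950.0 and 8953 against 7748, 13891 and 8866. Proximal replicate 4 was high and replicate 5 lay within the medial range in both genes. Their log2 fold changes were 1.07 ± 0.32 (adjusted p = 0.055) and 0.98 ± 0.4 (adjusted p = 0.155).

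Among 15 genes of stress and protein folding, the median log2 fold change was 0.66, with 10 positive values, but only Grpe1 passed. Grpe1, which releases nucleotide from the Hsp70 chaperone of mitochondria, was at 42.1, 53.5 and 28.1 against 24.4, 26.7 and 21.6 (log2 fold change 0.7 ± 0.2, adjusted p = 0.0495). It did not pass without proximal replicate 4 (adjusted p = 0.245), and no gene of the list passed at the same total. The Hsp90 family chaperones had larger values with wider spread. Hs90b was at 231, 226 and 143 against 119, 64.1 and 77.1, and Hsp83 at 131, 118 and 95.5 against 89.9, 43 and 44.7. The groups of both genes did not overlap, but their log2 fold changes of 1.21 ± 0.41 and 1.02 ± 0.4 did not pass (adjusted p = 0.0851 and 0.137).

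Without proximal replicate 4 the medians, less the median of all genes, were 0.34 for energy metabolism, 0.46 for translation and 0.37 for stress and folding. At the same total they were 0.45, 0.5 and 0.53. The level groups into which their members fall had mean medians of 0.12, 0.08 and 0.05. In distal segments at 5 dpa, against the same medial samples, the list medians were 0.65 for energy metabolism, 0.85 for translation and 0.31 for stress and folding. Both ends share their medial samples, so the proximal and distal medians against medial segments are set side by side only. Taken gene by gene, the distal minus proximal log2 difference had a median of 0.09, 0.17 and 0.22 in the same order. The rise was thus not particular to proximal segments in any of the 3 lists. None of the named members that passed by adjusted p alone in these 3 lists was past that threshold at the same total, with adjusted p between 0.0604 (Clpp) and 0.826 (Eif3a).

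**Figure D4:**
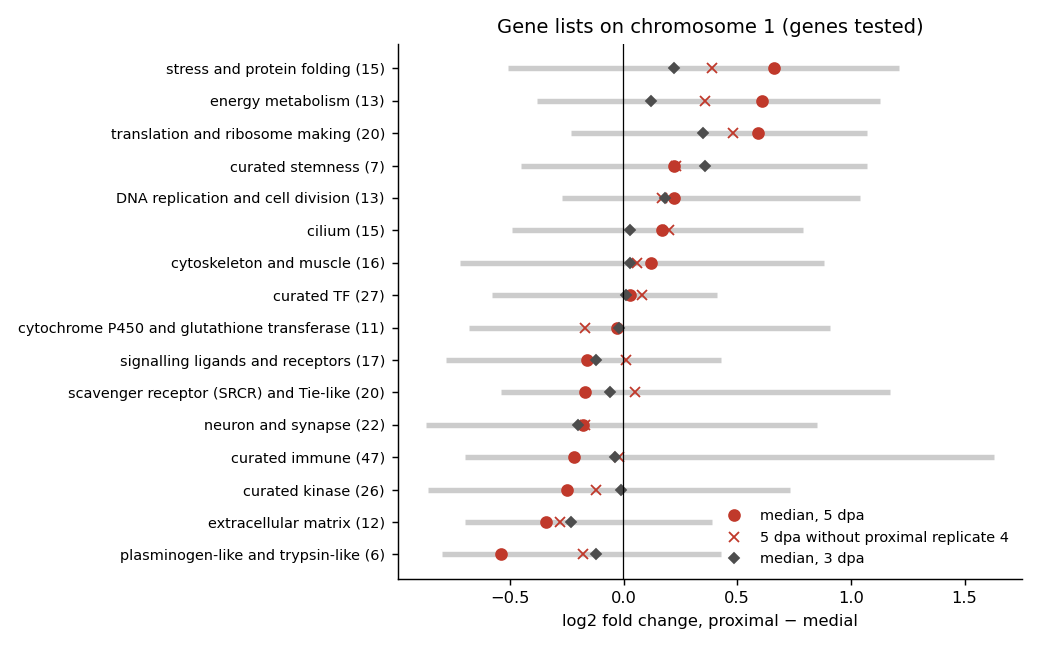
For each gene list on chromosome 1 (number of genes tested in parentheses), the horizontal axis gives the log2 fold change between proximal and medial segments, with the range over members at 5 dpa as a grey bar, the median at 5 dpa as a circle, the median without proximal replicate 4 as a cross and the median at 3 dpa as a diamond. The vertical line marks the median of all genes tested at 5 dpa (-0.004). Stress and protein folding, energy metabolism and translation stand highest at 0.66, 0.61 and 0.59.

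Further genes that passed by adjusted p alone included Aspd, named for an aspartate dehydrogenase, at 17.6, 18.2 and 11.6 against 8.22, 6.7 and 7.9 (log2 fold change 0.95 ± 0.2, adjusted p = 0.012). Sept3, a septin, of the family of filament-forming GTPases, was at 42.3, 40.1 and 21 against 19, 19.1 and 13.8 (0.9 ± 0.22, adjusted p = 0.0229). Pur9, which carries out the last steps of purine synthesis, had a log2 fold change of 0.73 ± 0.17 (adjusted p = 0.0208), and Cp2j5-3, a cytochrome P450, of 0.91 ± 0.23 (adjusted p = 0.0268). The groups of all 4 genes did not overlap. None of the 4 passed without proximal replicate 4, with adjusted p of 0.0714 for Aspd, 0.124 for Sept3, 0.113 for Pur9 and 0.129 for Cp2j5-3, and at the same total the values were 0.305, 0.288, 0.453 and 0.221. Cp2j5-3 was the only one of 11 cytochrome P450 and glutathione transferase genes to pass, and the median of that list was -0.03.

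In the list of plasminogen-like and trypsin-like genes, 2 of 6 tested passed lower (33.3%, beside 1.63% of all genes) and the median was -0.54, or -0.2 relative to all genes without proximal replicate 4. Bssp4, with a trypsin domain, was at 11.3, 8.87 and 11 against 20.1, 17.1 and 14 (log2 fold change -0.66 ± 0.17, adjusted p = 0.0286). Fa9-10, named for a clotting protease but listed with fibronectin and EGF domains and no protease domain, was at 5.02, 4.66 and 6.2 against 9.99, 9.51 and 10.2 (-0.8 ± 0.16, adjusted p = 0.00717). Neither gene's groups overlapped. Without proximal replicate 4 only Fa9-10 passed (adjusted p = 0.0465, and 0.138 for Bssp4). The plasminogen-like members Plmn-19 and Plmn-20 had positive log2 fold changes of 0.43 and 0.28 that did not pass, and that of Plmn-20 turned to -0.15 at the same total.

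In the study's curated kinase list, 1 of 26 genes passed lower (3.85%, beside 1.63% of all genes) and none higher, with a median of -0.25. This was Pdpk2, of the family of the kinase that activates Akt, at 72.7, 42.6 and 83.3 against 101, 134 and 117 (log2 fold change -0.86 ± 0.22, adjusted p = 0.0319), which did not pass without proximal replicate 4 (adjusted p = 0.174). The adjoining gene Pdpk1, of the same family, did not pass (-0.39 ± 0.16, adjusted p = 0.154). The curated immune list had 1 of 47 genes higher, Agrg7-5 (2.13%, beside 3.83% of all genes), and a median of -0.22. The study compiled these lists for its own analysis, which included these samples.

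No gene of the extracellular matrix, neuron, cilium or signalling lists passed in either direction. The extracellular matrix list had the lowest median of these, -0.34 over 12 genes, with 2 positive values. Cola1 and Coca1-3, named for collagens, had log2 fold changes of -0.45 ± 0.24 (adjusted p = 0.271) and -0.64 ± 0.23 (adjusted p = 0.114). The medians were -0.18 for 22 neuron and synapse genes, 0.17 for 15 cilium genes and -0.16 for 17 signalling genes. Psf1 was the only gene of 13 in DNA replication and cell division to pass (7.69%, beside 3.83% of all genes, median 0.22). Of 16 cytoskeleton and muscle genes, 1 passed higher (6.25%, median 0.12). The curated transcription factors (27 genes, median 0.03) and the scavenger receptor and Tie-like genes (20 genes, median -0.17) had none. The curated stemness list had 1 of 7 higher (14.3%), Sylc, and a median of 0.22.

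Markers of other tissues of the arm were present in all 6 samples, and 0 of the 10 tested passed. The sum of the 3 muscle markers was 5.54 to 11.79 in proximal and 4.61 to 13.4 in medial samples, and Actc-14 among them was at 0.66 or below. The sum of the 4 neuron markers was 43.56 to 61.68 and 56.83 to 62.67, nearly all of it from Elav4, a neuronal RNA-binding protein. On the deposited scale, the sum of the 4 ciliated cell markers was higher in every proximal sample, 19.02 to 35.13 against 15.25 to 18.78. The lowest proximal sum thus lay close to the highest medial one. The sum was highest in replicate 4, whose column total was 232.1% of the median, and it was not taken at the same total. Rsph9, a radial spoke protein of motile cilia, was at 12.5, 16 and 6.46 against 5.86, 5.76 and 6.12 (log2 fold change 0.79 ± 0.24, adjusted p = 0.0581). At the same total the log2 fold change of Rsph9 was 0.39 (adjusted p = 0.304). The part of ciliated cells in the other differences was not tested.

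At 3 dpa, which shares no sample with the comparison at 5 dpa, proximal segments had 94 genes higher (0.438%) and 2 lower (0.00933%) than medial segments. Of the 325 genes higher at 5 dpa, 309 had a positive log2 fold change at 3 dpa (95.1%, beside 52.6% of all genes tested), with a median of 0.74 and 72 calls (22.2%). Of the 94 genes lower at 5 dpa, 77 had a negative one (81.9%, beside 47.4%), with a median of -0.38 and 1 call. Across all genes tested, the log2 fold changes of both days correlated at a Pearson r of 0.49, as a description over genes. No gene was called for a difference of its change between 5 and 3 dpa by limma's test of that difference (0 calls; 1077 genes, or 5.02%, at an unadjusted p under 0.05; 0 to 2 calls over the other fits).

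Several of the named genes stood out on both days. AFI20134 was at 87.8, 104 and 119 in proximal replicates 2, 3 and 4 at 3 dpa and at 0.82 to 2.91 in the 4 medial samples (log2 fold change 5.42, adjusted p = 6.35e-09). Agrg7-5 was at 8.03, 8.79 and 11 against 0.27 to 0.61 (2.84, adjusted p = 4.85e-07), and AFI09084 at 63.7, 65.2 and 61.7 against 10.1 to 30.5 (1.76, adjusted p = 0.00363). In all 3 genes the proximal samples of 3 dpa stood clear of the medial ones. Unchar_13537 was lower on both days, at 10.7, 15.6 and 11.6 against 17 to 37 at 3 dpa (-1.03, adjusted p = 0.0382). Psf1, by contrast, was at 6, 5.41 and 6.06 against 4.3 to 5.66 at 3 dpa, where its groups overlapped (0.19, adjusted p = 0.842), although the difference between the days did not pass (adjusted p = 0.938).

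**Figure D5:**
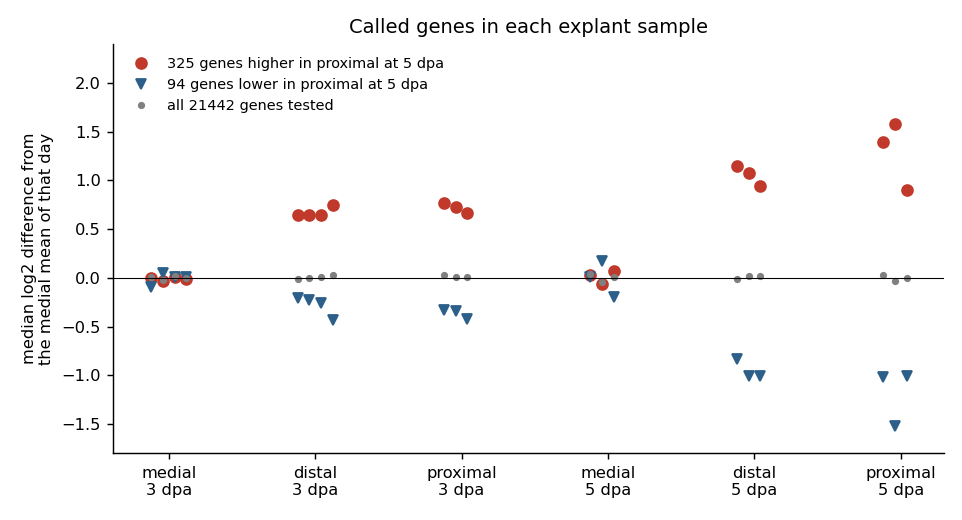
The vertical axis gives, for each of the 20 explant samples grouped by segment and day, the median log2 difference from the medial mean of the same day over the 325 genes higher (red), the 94 genes lower (blue) and all genes tested (grey). The proximal samples of 3 dpa lie at 0.67 to 0.77 and -0.42 to -0.33, and those of 5 dpa, which chose the genes, at 0.9 to 1.58 and -1.52 to -1.01.

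Distal segments regenerate, and at 5 dpa 303 genes differed between the ends, 100 higher in distal (0.466%) and 203 higher in proximal segments (0.947%). The genes chosen here had, against the same medial samples, a median log2 fold change of 1.26 in proximal and 1.06 in distal segments if higher, and of -1.18 and -0.98 if lower. Those pairs of values share their medial samples and are set side by side only. Without proximal replicate 4 the count of genes that differed between the ends was 169, and without proximal replicate 5 it was 586.

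Of the 6 chromosome 1 genes called higher, 4 were also called higher in distal than in medial segments at 5 dpa. Their distal log2 fold changes were 1.65 for Clpp, 1.32 for Hsdl2-2, 1.02 for Thop1 and 2.16 for Psf1. Those of Agrg7-5 (0.25) and Osta-5 (0.29) did not pass. Phb2, Aspd and Pur9 also rose more in distal segments (1.4, 1.39 and 1.63), whereas Sept3 and Cp2j5-3 rose less (0.66 and 0.33). Among the named genes, the ends differed in several. Agrg7-5 was at 0.64, 0.97 and 0.58 in distal replicates 1, 2 and 5, close to its medial values and below all proximal ones (distal minus proximal log2 difference -1.38 ± 0.22, adjusted p = 0.00208). AFI20134 was at 24.3, 29.8 and 15.6 in distal samples, between its medial and its proximal values (-1.88 ± 0.32, adjusted p = 0.00265). AFI09084 was at 39.3, 36.4 and 27.5, again between them (-2.47 ± 0.31, adjusted p = 0.000249). Psf1 went the other way, at 28.6, 21.2 and 18 in distal samples, above all proximal ones (1.11 ± 0.24, adjusted p = 0.014). Kbtb8-6, of the Kelch and BTB domain family, was at 15.5, 12.4 and 9.58 in proximal, 6.03, 6.11 and 8.38 in medial and 3.94, 4.71 and 6.09 in distal samples (-1.18 ± 0.22, adjusted p = 0.00479). AFI09887 was at 18.4, 13.5 and 6.69 in distal samples, above the proximal ones (1.97 ± 0.49, adjusted p = 0.0382). Its proximal values of 4.98, 0 and 5.02 include the 0 of replicate 4, on which its change against medial segments rests.

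A pair of genes that the study, among others, singled out in these same samples and gives by identifier was also followed. The study describes AFI18858 as a TRIM-like family member with a zf-Bbox domain. It lists thyroglobulin and methyltransferase domains for AFI33635. AFI18858 was at 46.9, 33.1 and 19 in proximal, 14.7, 11.8 and 12.2 in medial and 6.43, 1.9 and 3.63 in distal samples. The 3 segments did not overlap, with proximal highest and distal lowest. Proximal against medial segments gave a log2 fold change of 1.21 ± 0.32 (adjusted p = 0.0348), which was called in 1 of 6 fits with a sample left out and not with the replicate block (adjusted p = 0.133), and distal minus proximal gave -2.78 ± 0.32 (adjusted p = 0.000159). AFI33635, an uncharacterized gene, was at 1.49, 0.19 and 1.34 in proximal and at 3.46, 0.81 and 2.49 in medial samples. Its groups overlapped (log2 fold change -0.67 ± 0.34, adjusted p = 0.251). In distal samples it was at 2.44, 2.87 and 2.55, above every proximal value, although the distal minus proximal difference of 0.92 ± 0.34 was not called (adjusted p = 0.193). At 3 dpa its proximal against medial log2 fold change was -0.9 (adjusted p = 0.279).

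The arm regeneration series of the same study, with 1 sample per stage, a mature arm control and no replicates, shows where else these genes vary. Of the 325 genes, 323 were listed there, and their median log2 difference from the control, less that of all genes, was 0.61 at 48 hours post amputation (hpa) and 0.49 at 72 hpa. At stages 3, 4 and 5 it was 0.35, 0.36 and 0.21. It was -0.13 and 0.2 in the proximal and distal samples of the 50% stage. For 93 of the 94 genes called lower, it was -0.33 and -0.41 at 48 and 72 hpa, then -0.53 and -0.71 at stages 3 and 4. With each sample at the same total, the genes called higher stood at 1.11 and 1.14 at 48 and 72 hpa, and the genes called lower at -0.05 and -0.29. The genes called higher then stood at 0.53 at stage 5, and their value in the proximal sample of the 50% stage turned from -0.13 to 0.18.

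Agrg7-5, at 0.573 in the control, reached 18.9 and 6.41 at 48 and 72 hpa and stood at no more than 0.157 in the later stages. The values of AFI20134 were 7.8 in the control and 199 and 104 at those early times. It stayed above the control later, at 67.9, 84.1 and 81.4 in stages 3, 4 and 5. In the proximal and distal samples of the 50% stage it was at 19.7 and 74. Psf1 peaked later. Its control value was 7.65 and its value at 48 hpa 2.49, and stages 3 and 4 gave 27.2 and 38.6. For Unchar_13717 the control gave 56.1, 48 hpa gave 46.3 and stage 3 gave 3.1.

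The study grouped genes into temporal clusters A1 to A9 from that series, and its assignments for chromosome 1 were set beside the change at 5 dpa. Cluster A6, one of those that the study ties to cell proliferation, had the highest median log2 fold change, 0.4 over 73 genes, with 15 genes higher by adjusted p alone (20.5%, beside 3.83% of all genes) and none lower. Only 2 of the 73 passed without proximal replicate 4, none at the same total and 2 with the replicate block. A5 followed with 0.29 over 67 genes and 6 higher, and A7 with 0.18 over 48 genes and 5 higher. In A5 and A7, 1 gene each was higher without proximal replicate 4. A9, which the study also ties to cell proliferation, had a median of -0.06 over 51 genes, with none higher and 1 lower. A2 and A3, of the early wound response, had -0.06 over 77 genes and -0.1 over 44 genes, each with 3 higher and 1 lower. In distal segments, against the same medial samples, the medians were 0.45 in A5, 0.56 in A6, 0.46 in A7 and 0.09 in A9. The lowest medians were -0.2 in A1 (68 genes, 3 higher and 4 lower) and -0.19 in A4 (55 genes, none higher and 1 lower). Relative to all genes, A6 was at 0.3 at the same total and at 0.32 without proximal replicate 4.

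By the age that the study assigned to each gene, 30 of the 37 higher genes of chromosome 1 belonged to the class shared by all cellular organisms, which held 55% of the genes tested there, and 6 of the 12 lower genes did. The class found in A. filiformis alone held 10.6% of the genes tested, 1 of the higher genes and 4 of the lower ones, with a median log2 fold change of -0.19. The oldest class also had higher values than the youngest, with a median mean value of 4.08 against 2.93.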

How the data were processed

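RNA-seq of 28 samples was analysed from 1 deposited table per experiment. The authors made these signal values by pseudo-aligning reads to gene models with kallisto and rescaling TPM between samples with TMM. The methods state TMM for the arm regeneration series, and for explants the table's label does. TMM assumes that most genes do not change. Since TPM holds no read numbers, no count model was used and depth is unknown.

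Samples were grouped from their labels. limma (version 3.58.1, in R 4.3.3), with its intensity trend, was run on log2(value + 1) of all 20 explant samples in 6 groups, which share 1 estimate of the spread. The contrasts were proximal against medial at 5 and 3 dpa, their difference, and distal against proximal and medial at 5 dpa. Benjamini–Hochberg adjustment ran over all 21442 genes. The pipeline was tested on simulated data. Python 3.11.15, numpy 2.4.6, pandas 2.3.3 and matplotlib 3.10.9 did the rest.

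Names, domains, ages, clusters and curated lists came from the study's gene table for chromosome 1. Its expression and differential expression columns were not used, nor was any set test. Named genes were the called chromosome 1 genes, list members that passed or were most abundant, the 2 identifiers the study names, and the 2 largest changes in each direction among genes whose groups lay apart and whose higher mean was 10 or more. Genes that passed by adjusted p alone were added after their values were seen. The comparison, the members and the lists were chosen with earlier results of these data known.

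Alternatives were a pseudocount of 0.1, other filters, other scalings, other limma settings, a replicate block and leaving out each sample. Samples with the same replicate number may come from the same batch, which the labels do not state. Deviations from the group means, over genes, of same-numbered proximal and medial samples correlated at 0.135 and 0.158 at 5 dpa and at 0.18 to 0.405 at 3 dpa, those of differently numbered ones at -0.193 to 0.212 and -0.316 to 0.0634. Same-numbered distal and medial samples of 5 dpa gave -0.0407 to 0.205. The fit without the block stayed the main one, and counts of list members under the block, at the same total and without proximal replicate 4 were added after the values were seen.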

Additional observations from a re-analysis of the deposited data

Results flagged for a closer look

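In 8 genes named above the change against medial segments at 5 dpa differed between the ends of the explant, by limma's direct comparison of distal with proximal segments over all genes tested. These passed the adjusted p and a log2 difference beyond 1 or -1. Pur9 passed by adjusted p alone and was higher at the regenerating end (0.89, adjusted p = 0.00812). On the log2 scale, the distal change less the proximal change was -2.78 for AFI18858, -2.47 for AFI09084, -1.88 for AFI20134, -1.38 for Agrg7-5, -1.18 for Kbtb8-6 and -1.13 for Plmn-20, all higher at the wound that closes without regrowth. It was 1.11 for Psf1 and 1.97 for AFI09887, which were higher at the regenerating end. The value of AFI09887 includes the 0 of proximal replicate 4. For these differences, only the counts over all genes are given under the other fits.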

How the results depend on the processing

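Of the 48 genes followed by name, 47 kept the direction of their log2 fold change under every alternative run, and Plmn-20 (0.28) turned to -0.15 at the same total. Many of the 48 were picked for a small adjusted p in the main fit, so a kept direction was likely in advance. Some abundant list members not described here also turned at the same total, among them Pygb (0.33 to -0.11), Atf4 (0.32 to -0.12) and H331 (0.28 to -0.16). The counts moved more. For genes higher and lower in proximal segments at 5 dpa (325 and 94), the same total gave 61 and 230, a fit of only the groups compared 13 and 1, array weights 748 and 260, and a pseudocount of 0.1 gave 180 lower. Array weights gave proximal replicate 1 a weight of 16.81 and replicates 4 and 5 weights of 0.3194 and 0.2585. Leaving out 1 sample gave 142 to 890 higher and 25 to 370 lower. Distal against proximal segments (303 calls) gave 187 at the same total, 10 with only the groups compared, 729 with array weights and 169 to 586 with a sample left out. The difference between days (0 calls) gave 1 with a pseudocount of 0.1, 2 with array weights and 0 to 1 with a sample left out. At 3 dpa (96 calls) the same total gave 53 and array weights 165.

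With a replicate block, 151 genes were higher and 36 lower at 5 dpa, and 158 differed between the ends. The labels do not say that a number marks a batch. No other sample of 5 dpa has the number 4, so proximal replicate 4 adds nothing under the block. The block ended the calls of Clpp (log2 fold change 0.96), Osta-5 (0.65), Hsdl2-2 (0.98, by the fold threshold alone), Psf1 (0.66), Thop1 (0.8), Unchar_13537 (-1.07), Unchar_13717 (-1.48), AFI09887 (-1.03) and AFI18858 (0.96).

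The list medians below, relative to all genes, moved by more than the spread of the proximal samples. Without proximal replicate 4 they were 0.04 for cytoskeleton and muscle, 0.37 for stress and folding and -0.2 for plasminogen-like and trypsin-like genes. The others in that fit were -0.19 for cytochrome P450 and glutathione transferase, -0.04 for curated immune genes, -0.08 for A4 and 0.32 for A6. At the same total they were 0.0 for cytoskeleton and muscle, 0.13 for curated transcription factors and 0.3 for A6. In the arm regeneration series, relative to all genes, the higher genes stood at 1.11 and 1.14 at 48 and 72 hpa at the same total and at 0.78 and 0.58 with a pseudocount of 0.1, and the lower genes at -0.05 and -0.29, and at -0.48 and -0.76. The causes were not tested.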
